A study of Mus musculus with 20 samples.

Results

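The 10 genes described here encode parts of the tight junction of the mouse distal colon (DC): the claudins Cldn2, Cldn3, Cldn4, Cldn7, Cldn8, Cldn12, Cldn15 and Cldn23, the MARVEL-domain protein occludin (Ocln) and the scaffold zonula occludens-1 (Tjp1). They were found by their symbols among the 26619 genes of the count table, and all 10 were among the 17893 genes that passed the filter on low counts. Their lowest count in any mouse was 454 reads (Cldn23) and their highest was 23091 reads (Cldn7). RNA came from the DC of 20 C57BL/6 mice, and 5 mice were fed each of the 4 diets. Every mouse first received the Total Western Diet (TWD), a purified diet modelled on human nutrient intake in the United States, for 6 weeks from weaning, at 3 weeks of age or shortly after. For a further 3 weeks they were fed the TWD with 0, 2, 5 or 10% by weight of raw (resistant) potato starch (RPS), a starch that escapes digestion in the small intestine. The tissue was a whole section of the gut wall close to the anus, so less RNA of a gene per cell and fewer cells that make it cannot be told apart. For 3 mice (RS10_717, RS10_725 and RS10_748) the treatment label gives another RPS level than the description label, which was used here.

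Tight junctions seal the space between neighbouring epithelial cells near their apical side. Claudins span the membrane and set which ions and how much water pass: some, such as Cldn2 and Cldn15, form channels for small cations, while others tighten the seal. Occludin stabilises the strands, and zonula occludens proteins tie claudins to the actin cytoskeleton. In the colon, claudin make-up changes between the crypt base and the surface, where the colonocytes that absorb salt and water lie.

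None of the 10 genes was called as changed by RPS at any level with edgeR's quasi-likelihood test. Cldn15, Cldn23 and Tjp1 had higher means at 10% than at 0% RPS with an unadjusted edgeR p under 0.05. Of the 5 mice at 10% RPS, 4 exceeded every control for Cldn15, 3 for Cldn23 and 2 for Tjp1. Levels are in CPM, read counts scaled to a common library size. Mean levels at 10% RPS against 0% RPS were 56.1 against 36.8 CPM for Cldn15, 33.9 against 23.9 CPM for Cldn23 and 162 against 145 CPM for Tjp1. Their unadjusted p-values were 0.0138, 0.00894 and 0.0224, and their adjusted p-values 0.207, 0.18 and 0.246. The other 7 genes differed between these diets by at most 0.16 on the log2 scale in either direction, and their 95% intervals included 0. DESeq2 called 0 of the 10 at 10% RPS, but it called a rising linear trend over RPS percent for Cldn15, Cldn23 and Tjp1.

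Promoters of 3 claudins are shown because the results turn on these genes: Cldn23 and Cldn15 have the smallest trend p-values among the 8 claudins of the set, and Cldn8 is the one compared with sodium transport genes further on. Each is the 200 bases before the start of the canonical GENCODE vM39 transcript in build GRCm39, given 5′ to 3′ on the gene's strand. Capitals mark letters of the GC box (GGGCGG) or of the E-box (CAGCTG), searched on both strands.
Cldn23, chr8:36293714-36293913, minus strand: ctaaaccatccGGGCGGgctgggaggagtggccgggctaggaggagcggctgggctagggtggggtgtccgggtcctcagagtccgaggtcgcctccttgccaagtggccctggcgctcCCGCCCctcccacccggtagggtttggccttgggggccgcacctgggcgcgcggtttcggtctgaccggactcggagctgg
Cldn15, chr5:136996466-136996665, plus strand: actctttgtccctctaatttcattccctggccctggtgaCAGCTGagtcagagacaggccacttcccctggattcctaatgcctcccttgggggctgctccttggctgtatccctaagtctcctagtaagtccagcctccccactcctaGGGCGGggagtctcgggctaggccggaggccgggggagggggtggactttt
Cldn8, chr16:88360072-88360271, minus strand: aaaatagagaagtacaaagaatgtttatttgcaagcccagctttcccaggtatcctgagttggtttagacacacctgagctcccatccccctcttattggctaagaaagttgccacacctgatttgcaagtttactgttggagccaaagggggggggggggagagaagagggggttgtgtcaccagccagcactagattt
The 3 windows lie outside every annotated exon, though that of Cldn15 lies within the span of the Cldn15 gene. Windows of Cldn3, Cldn7, Ocln and Tjp1, which enter the counts below, overlap annotated exons. The Cldn23 window holds 72% G and C, more than 93.6% of the 21770 protein-coding promoters of this length, with 17 CpG dinucleotides. The Cldn15 window holds 60% and 4 CpG, and the Cldn8 window 48.5% and 0 CpG. A GC box stood in 5 of the 10 genes' promoters, against 34.8% of all promoters, and an E-box in 1 of 10 (Cldn15), against 9.76%. The other 3 motifs searched were the TATA box (TATAAA), in 0 of 10 against 9.57%, the core of a CDX site (TTTATG), in 1 of 10 (Cldn2) against 7.81%, and a core of the HNF4 site (CAAAGT), in 1 of 10 (Cldn12) against 10.1%. These counts describe letters only.

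Library totals were 18429493 to 34974230 reads, and the 5 deepest were those of the 0% RPS mice (at least 31254832 reads). All 10 epithelial markers checked, among them Epcam and Cdh1, were present in every diet, with a sum of 15316 to 22694 CPM per mouse. A sum of 10 markers of pancreas reached 5679 CPM in mouse RS10_721 (5% RPS) and 506 CPM in mouse RS10_784 (10% RPS), while the other 18 mice held at most 16.0 CPM. Of 50-base windows in the transcripts, none was shared with another gene for 8 of the 10 genes, 0.0186% were for Cldn12 and 0.66% for Ocln. Cldn3, Cldn7, Cldn12, Ocln and Tjp1 overlap other annotated genes, and whether counting used strand is not given in the sources used here, so reads of these partners cannot be told apart.

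Levels can be compared between genes only per length, as CPM divided by the kilobases of merged exons. On this scale Cldn7 had the highest median over the 20 mice at 309 CPM per kilobase, and Cldn3 followed at 284. Cldn7 lay above Cldn3 in 17 of 20 mice, and both lay above the other 8 genes in every mouse. Cldn8 and Cldn2 came next at 43.5 and 40.6, an order that held in only 12 of 20 mice. Cldn4 (20.4), Cldn15 (19.5) and Tjp1 (19.1) had almost equal medians and crossed each other, since Cldn4 exceeded Cldn15 in 10 of 20 mice and Cldn15 exceeded Tjp1 in 12. Ocln (15.0) and Cldn23 (13.8) also overlapped, with Ocln above in 13 of 20 mice. Cldn12 was lowest at 7.44, below Cldn23 in every mouse. With the length of the longest transcript in place of merged exons, Cldn7 stayed first with 489 and Cldn2 passed Cldn8.

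**Figure D1:**
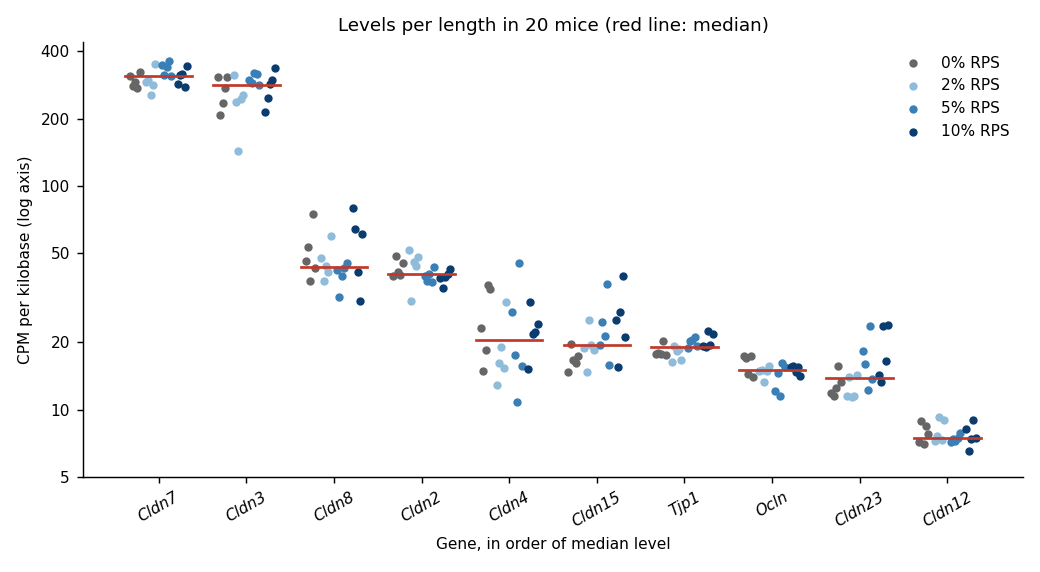
CPM per kilobase of merged exons (log axis) for each of the 10 genes in 20 mice, coloured by diet, with the median as a red line. Cldn7 and Cldn3 lie above the other 8 genes in every mouse, and Cldn12 has the lowest median at 7.44 CPM per kilobase.

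As a share of the per-length total of the 8 claudins, Cldn7 made up 41.2% ± 2.76 (SD, n = 5) at 0% RPS and 40.8% ± 2.02 at 10% RPS. Cldn3 made up 36.9% ± 3.15 and 36.6% ± 3.69. The share of Cldn15 was 2.38% ± 0.434 at 0% RPS, 2.91% ± 0.945 at 2%, 2.97% ± 0.816 at 5% and 3.45% ± 1.29 at 10% RPS. The share of Cldn23 was 1.80% ± 0.213, 1.85% ± 0.246, 2.12% ± 0.443 and 2.41% ± 0.511 in the same order. Cldn7 and Cldn3 thus made up most of the total on every diet.

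Cldn15, which forms a channel for sodium in the gut and sits at chr5:136995470-137004712, measured 32.1, 35.1, 36.3, 37.7 and 42.9 CPM in the 5 mice at 0% RPS. At 10% RPS it measured 33.7, 46.0, 54.7, 59.6 and 86.3 CPM. Of the 10% RPS mice, 4 lay above the highest control and 1, mouse RS10_727, lay among the controls. At 2% RPS the level was 42.1 ± 8.18 CPM (SD, n = 5) and at 5% RPS 51.5 ± 17.3 CPM, where mouse RS10_721 reached 79.7 CPM. The log2 change at 10% RPS was 0.61 ± 0.22 (SE) with a 95% interval of 0.14 to 1.08, or 1.52-fold (edgeR adjusted p = 0.207). At 5% RPS it was 0.48 (edgeR unadjusted p = 0.0436, adjusted p = 0.532). The linear trend had an adjusted p of 0.113 with edgeR and 0.0383 with DESeq2. The estimate at 10% RPS was 0.40 without mouse RS10_731, the highest, and 0.75 without RS10_727, and without RS10_727 the edgeR trend had an adjusted p of 0.0251. In other fits with 1 mouse left out the trend's adjusted p was as high as 0.291.

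Cldn2, the cation and water channel of leaky epithelia (chrX:138701480-138712135), measured 137, 138, 142, 156 and 167 CPM at 0% RPS and 121, 133, 134, 139.6 and 146 CPM at 10% RPS. The groups overlapped, with 3 mice at 10% RPS below the lowest control. The log2 difference was -0.13 ± 0.10 (SE, edgeR adjusted p = 0.563), with a 95% interval of -0.34 to 0.08. The 2% RPS group spread most, from 105 to 178 CPM. Cldn2 and Cldn15, the channel formers of the set, had Pearson r of -0.01 over the 20 mice.

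Cldn23, a claudin of the colon surface (chr8:36291866-36293713), measured 21.3, 21.9, 23.1, 24.5 and 29.0 CPM at 0% RPS. At 10% RPS it measured 24.7, 26.5, 30.6, 43.6 and 44.1 CPM. The highest control, mouse RS10_707, exceeded the 2 lowest mice at 10% RPS, so the groups overlapped, and 3 of 5 lay above all controls. At 2% RPS Cldn23 averaged 23.2 ± 2.72 CPM, while at 5% RPS it averaged 31.0 ± 8.31 CPM (SD, n = 5). The log2 change at 10% RPS was 0.50 ± 0.17 (SE) with a 95% interval of 0.14 to 0.86, or 1.42-fold (edgeR adjusted p = 0.18). At 5% RPS it was 0.37 (edgeR unadjusted p = 0.0432, adjusted p = 0.531). Its trend was the nearest to the threshold among the 10 genes, with an adjusted p of 0.0629 (edgeR) and 0.0171 (DESeq2). The edgeR trend had an adjusted p of 0.0176 without mouse RS10_727 and 0.0359 without mouse RS10_721. In other fits with 1 mouse left out it was as high as 0.192.

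Cldn7 and Cldn3, the most abundant claudins, are sealing claudins found along the whole crypt. Cldn7 (chr11:69852648-69858711) measured 581, 589, 616, 654 and 681 CPM at 0% RPS and 587, 602, 662, 667 and 725.4 CPM at 10% RPS, which overlap almost fully. The log2 difference was 0.06 ± 0.08 (SE, edgeR adjusted p = 0.804), with a 95% interval of -0.12 to 0.23. At 5% RPS Cldn7 was 706.6 ± 48.1 CPM against 624 ± 42.7 CPM (SD, n = 5), a log2 difference of 0.18 (edgeR unadjusted p = 0.0427, adjusted p = 0.531). Cldn3 (chr5:135015068-135016326) measured 262, 296, 347, 388 and 388 CPM at 0% RPS and 269.9, 313, 359, 373 and 426 CPM at 10% RPS. The groups shared most of their range, and the lowest value of all, 181 CPM, came from mouse RS10_715 at 2% RPS. The log2 difference of Cldn3 was 0.05 ± 0.16 (SE, edgeR adjusted p = 0.913) at 10% RPS, and the 95% interval of -0.27 to 0.37 reaches up to 1.30-fold higher.

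Cldn4, a sealing claudin whose gene neighbours Cldn3 on chromosome 5 (chr5:134973973-134975788), had the highest coefficient of variation over the 20 mice, 39.7%. It measured 27.1, 33.7, 41.9, 62.8 and 65.6 CPM at 0% RPS and 27.6, 39.5, 40.5, 43.9 and 54.9 CPM at 10% RPS. At 5% RPS it ran from 19.6 to 82.5 CPM, the highest value being that of mouse RS10_721, which also held the pancreas transcripts. The coefficient of variation was 37.3% at 0% RPS, against 6.83% for Cldn7 and 16.7% for Cldn3. The log2 difference at 10% RPS was -0.16 ± 0.35 (SE, edgeR adjusted p = 0.871), and the 95% interval of -0.91 to 0.58 is the widest of the 10.

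Cldn8, a barrier to sodium in the distal colon (chr16:88357716-88360071), measured 88.7, 101, 109, 126 and 176 CPM at 0% RPS and 72.4, 97.0, 144, 152 and 188 CPM at 10% RPS. Both the lowest and the highest of the 20 mice were therefore on 10% RPS. At 2% RPS it ran from 88.5 to 141 CPM, and at 5% RPS from 74.97 to 107 CPM. The log2 difference at 10% RPS was 0.12 ± 0.22 (SE, edgeR adjusted p = 0.845). It was -0.05 without mouse RS10_725, the highest, and -0.11 with the clock gene score as a covariate.

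Aldosterone acts in the distal colon through the mineralocorticoid receptor (Nr3c2), protected from glucocorticoids by Hsd11b2, and raises the epithelial sodium channel and Cldn8. The beta and gamma subunits of that channel fell over the RPS levels. Scnn1b went from 39.2 ± 12.5 CPM (SD, n = 5) at 0% RPS to 25.9 ± 5.41, 19.3 ± 9.53 and 13.6 ± 5.77 CPM at 2, 5 and 10% RPS (edgeR trend adjusted p = 0.0241). Scnn1g went from 43.7 ± 19.2 to 29.3 ± 6.91, 16.6 ± 10.2 and 10.3 ± 8.31 CPM (edgeR trend adjusted p = 0.041). In each, 4 of the 5 mice at 10% RPS lay below the lowest control. When groups followed the treatment label, or with an epithelial marker covariate, no gene had an edgeR trend past the threshold (0 against 375). These calls and the other edgeR trend calls given below were thus lost, while DESeq2 was not refitted under these settings. Scnn1a, the alpha subunit, was 186 ± 25.0 CPM in controls and 196 ± 26.9 CPM in the 10% RPS group, and its trend had an adjusted p of 0.552. Nr3c2, Hsd11b2 and the kinase Sgk1 had edgeR trend adjusted p-values of 0.219, 0.115 and 0.85. Over the 20 mice Cldn8 had Pearson r of -0.01 with Scnn1b (permutation p = 0.965) and 0.13 with Scnn1g (permutation p = 0.575). Its r was 0.53 with Sgk1 (rho 0.59, permutation p = 0.018, adjusted p = 0.128) and -0.51 with Scnn1a (rho -0.58, permutation p = 0.0198, adjusted p = 0.128). Without the 2 mice farthest from the median these became 0.63 and -0.56. Adjusted values here and below cover 71 relations tested over the 20 mice.

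Cldn12, an atypical claudin with a part in calcium passage (chr5:5539537-5564995), measured 72.2, 73.4, 80.0, 86.2 and 91.4 CPM at 0% RPS and 67.0, 75.9, 76.1, 84.0 and 92.4 CPM at 10% RPS. Its groups overlapped on every diet, and the log2 difference at 10% RPS was -0.03 ± 0.09 (SE, edgeR adjusted p = 0.918). Cldn12 was lower in libraries richer in GC-rich transcripts. With the balance of GC-rich over GC-poor genes it had Pearson r of -0.56 (permutation p = 0.0101, adjusted p = 0.119) and Spearman rho of -0.62 (permutation p = 0.00414, adjusted p = 0.049), and r was -0.55 without the 2 farthest mice. The balance was the mean log2 CPM of the 1782 tested genes highest in GC minus that of the 1782 lowest, out of 17816 tested genes with a GC value. The median of the balance was 0.52 at 0% RPS and 0.45 at 10% RPS. Cldn15 had r of -0.47 with it (permutation p = 0.0338, adjusted p = 0.172) and rho of -0.53 (permutation p = 0.0166, adjusted p = 0.098). Over the 10 genes r ran from -0.56 for Cldn12 to 0.41 for Cldn3. An alternative fit with library trends over GC content removed is given below, and the part of the balance was otherwise not tested.

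Ocln, a strand protein outside the claudin family (chr13:100630334-100689535), measured 132, 136, 159.5, 163 and 163 CPM at 0% RPS and 132, 138, 145, 146 and 148 CPM at 10% RPS. No mouse at 10% RPS lay outside the range of the controls. The log2 difference was -0.09 ± 0.09 (SE, edgeR adjusted p = 0.69). At 5% RPS, with 131 ± 19.6 CPM against 151 ± 15.2 CPM (SD, n = 5), it was -0.20 (edgeR unadjusted p = 0.0355, adjusted p = 0.512).

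Tjp1, the scaffold that links claudins to actin (chr7:64945898-65177529), measured 139, 141, 141, 142 and 161 CPM at 0% RPS and 151, 153, 154, 173 and 179 CPM at 10% RPS. All 5 mice at 10% RPS exceeded 4 of the controls, and only mouse RS10_707 among the controls lay within their range. Tjp1 was 142 ± 10.1 CPM in the 2% RPS group and 158 ± 7.48 CPM in the 5% RPS group (SD, n = 5). The log2 change at 10% RPS was small and precise, 0.16 ± 0.07 (SE), or 1.12-fold with a 95% interval of 1.02 to 1.23 (edgeR adjusted p = 0.246). The trend had an adjusted p of 0.0924 with edgeR and 0.035 with DESeq2, and of 0.0394 with edgeR without mouse RS10_727. In other edgeR fits with 1 mouse left out it was as high as 0.225.

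**Figure D2:**
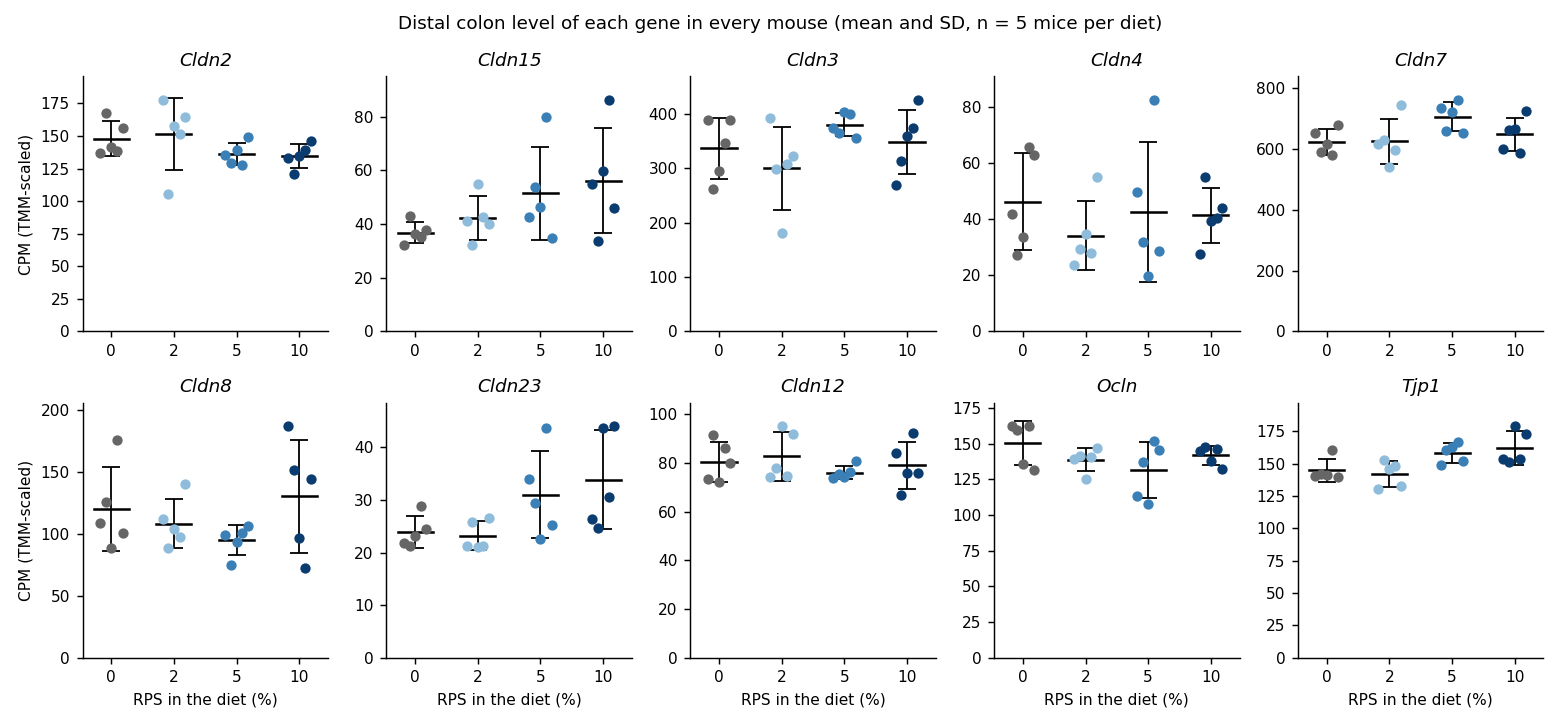
CPM of each gene in every mouse against the RPS content of the diet (%), with the mean and SD of 5 mice as lines. Of the 5 mice at 10% RPS, 4 exceed every control for Cldn15 and 3 for Cldn23, while the Cldn7 and Cldn12 points overlap on all diets.

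How many of the 10 genes differed can be set against all genes. In the comparison of 10% with 0% RPS, edgeR called 0 of the 10 and 0.0391% of all tested genes (7 genes), and DESeq2 called 0 of the 10 and 0.811%. DESeq2 shares here and below are over the 25901 genes it tested (25874 for the trend). These include genes under the low-count filter, which all 10 passed. An unadjusted edgeR p under 0.05 was reached by 3 of the 10, against 15.2% of all genes. All 3 were higher at 10% RPS, a direction with such a p in 7.32% of all genes. The median log2 difference was 0.05 over the 10 genes and -0.01 over all genes. In 0 of the 10 did all mice at 10% RPS lie on one side of all controls, against 2.28% of all genes. At 5% RPS edgeR called 0 of the 10 and 0% of all genes, DESeq2 called 0 of the 10 and 0.120%, and 4 of the 10 (Cldn7, Cldn15, Cldn23 and Ocln) had an unadjusted edgeR p under 0.05, against 9.19%. At 2% RPS edgeR called 0 of the 10 and 0% of all genes, DESeq2 called 0 of the 10 and 0.00386%, and 0 of the 10 had an unadjusted edgeR p under 0.05, against 1.41%.

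For the linear trend edgeR called 0 of the 10 and 2.10% of all genes, of which 1.15% were rising and 0.950% falling, while DESeq2 called 3 of the 10 and 3.81%. A rising trend with an unadjusted edgeR p under 0.05 was seen in 3 of the 10, against 9.00% of all genes, and a falling one in 0 of the 10, against 10.1%. For any difference among the 4 diets edgeR called 0 of the 10 and 0.0727% of all genes, DESeq2 called 0 of the 10 and 1.35%, and 2 of the 10 (Cldn23 and Tjp1) had an unadjusted edgeR p under 0.05, against 10.6%.

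**Figure D3:**
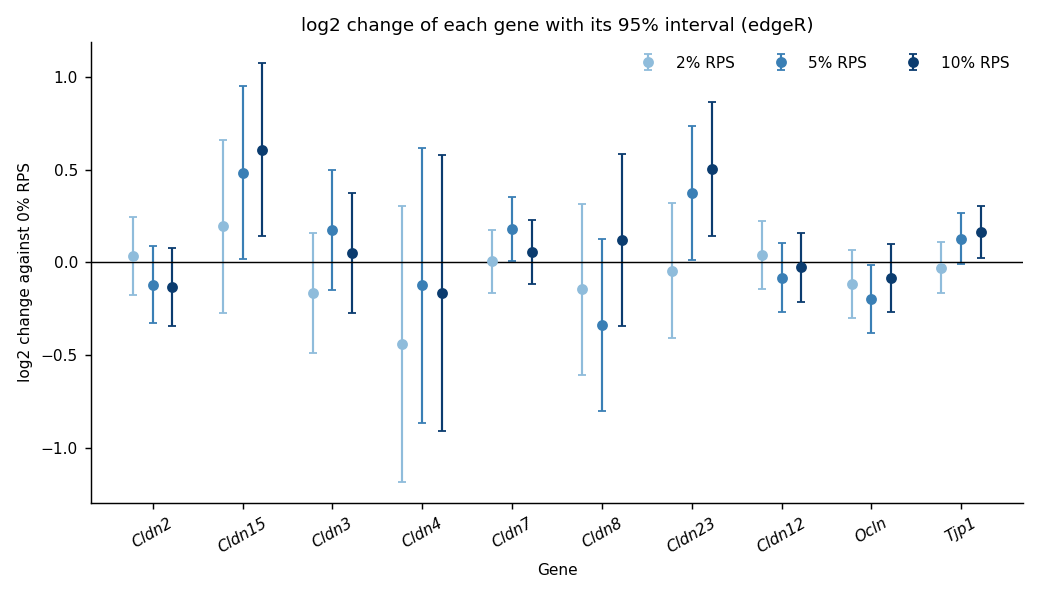
log2 change of each gene against 0% RPS at 2, 5 and 10% RPS (edgeR estimate and 95% interval, 5 mice per diet). At 10% RPS the intervals of Cldn15, Cldn23 and Tjp1 lie above 0 and the other 7 include 0.

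Across the 20 mice, 2 of the 45 pairs among the 10 genes had an adjusted permutation p of at most 0.05. Cldn23 and Tjp1 had Pearson r of 0.75 (permutation p = 0.00012, adjusted p = 0.00462), Spearman rho of 0.69 (permutation p = 0.00125, adjusted p = 0.0419) and r of 0.66 without the 2 farthest mice. Cldn3 and Cldn7 had r of 0.66 (permutation p = 0.0007, adjusted p = 0.0124), rho of 0.63 (permutation p = 0.00371, adjusted p = 0.049) and r of 0.49 without the 2 farthest mice. With the mean of each diet removed, r was 0.55 for Cldn23 with Tjp1 and 0.60 for Cldn3 with Cldn7, values for which no p-value was computed. The lowest r of all pairs was -0.54, between Cldn2 and Tjp1.

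The mean of 10 markers of surface colonocytes, the absorptive cells at the top of the crypt, moved with Cldn15, Cldn23 and Tjp1 over the pooled diets. Of 10 such markers, 7 rose over the RPS levels by edgeR, against 1.15% of all genes. Among them were Car4, a carbonic anhydrase (1116 ± 169 CPM in controls against 1825 ± 131 CPM in the 10% RPS group, SD, n = 5, trend adjusted p = 0.00214), and Slc26a3, the chloride-bicarbonate exchanger (1102 ± 157 and 1633 ± 119 CPM, trend adjusted p = 0.00423). Guca2a, Emp1 and Slc20a1 were not called (edgeR trend adjusted p = 0.379, 0.405 and 0.734). Slc20a1 went the other way, from 391 ± 191 CPM in controls to 334 ± 70.1 CPM in the 10% RPS group. The summed level of the 10 markers spanned 4423 to 5643 CPM per mouse at 0% RPS, 4405 to 5407 at 2%, 5026 to 7715 at 5% and 6571 to 8052 at 10% RPS, so that the 10% RPS mice lay above all controls. The mean log2 CPM of the 10 markers had Pearson r of 0.76 with Cldn23 (rho 0.66, permutation p = 0.00013, adjusted p = 0.00462), 0.70 with Cldn15 (rho 0.66, permutation p = 0.00058, adjusted p = 0.0124) and 0.66 with Tjp1 (rho 0.68, permutation p = 0.00164, adjusted p = 0.0233). The permutation p of rho was 0.00236, 0.00198 and 0.00143 for the 3 genes, and 0.0419 for each after adjustment. Without the 2 farthest mice r was 0.60, 0.66 and 0.54, and with diet means removed 0.58, 0.55 and 0.31. The permutations moved mice across diets, so a rise with RPS shared by score and gene enters these p-values. No p-value was computed with diet means removed. The part of these cells in the Cldn15, Cldn23 and Tjp1 results was not tested. In an alternative fit the mean of 10 general epithelial markers was a covariate. The log2 change at 10% RPS was then 0.22 ± 0.27 for Cldn15, 0.24 ± 0.22 for Cldn23 and 0.17 ± 0.09 for Tjp1 (SE). Each had an edgeR adjusted p of 0.9996. This covariate includes Krt20, also a surface marker called as rising, and was itself higher in most mice on 10% RPS than in controls. It thus takes up part of the diet difference of any gene, and this fit cannot decide the part of surface cells.

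**Figure D4:**
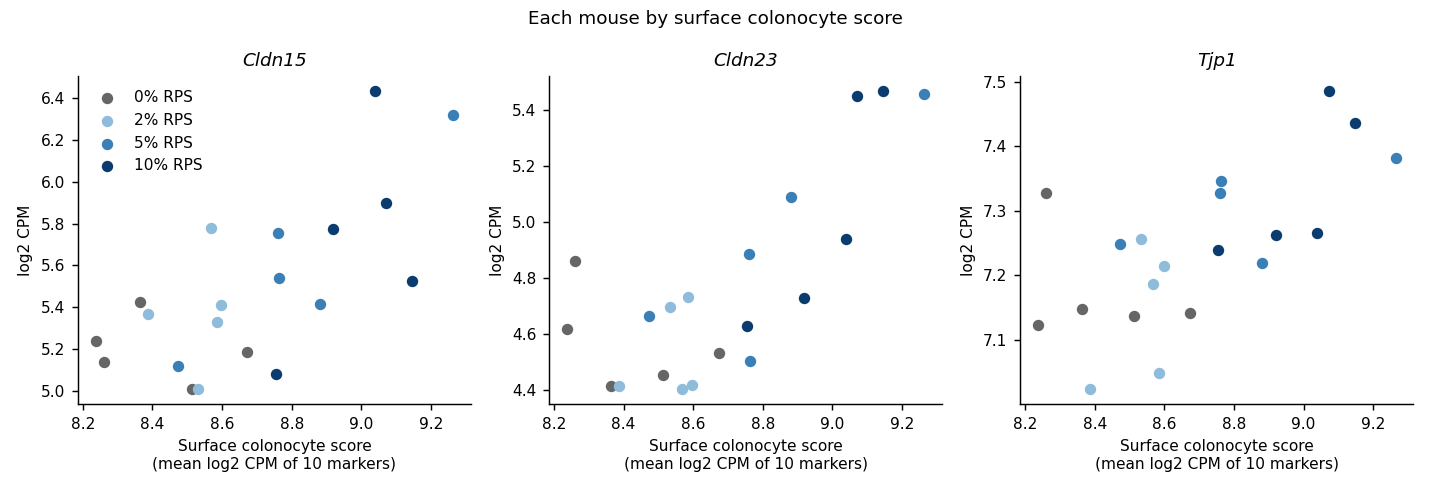
log2 CPM of Cldn15, Cldn23 and Tjp1 against the mean log2 CPM of 10 surface colonocyte markers, 1 point per mouse, coloured by diet. Points run from lower left to upper right, with Pearson r of 0.70, 0.76 and 0.66, and mice on 10% RPS sit at the right of the controls.

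The genes whose log2 CPM was most like each of the 10 over the 20 mice were sought among 15231 tested genes averaging 1 CPM or more. Since they were picked for the highest Pearson r, the values describe these libraries and carry no test. Among the genes most like Cldn15 were Insl5, a peptide hormone of colonic endocrine cells (r = 0.89), and Slc25a40 (0.87). Cldn23 was most like Slc13a2, a sodium-dependent dicarboxylate carrier (0.85), Dpep1, a brush border dipeptidase (0.85), and Pgm2 (0.83). For Tjp1 they were Abcc3, a bile salt exporter (0.90), Slc13a2os, a non-coding RNA next to Slc13a2 (0.86), and Myo7b, a brush border myosin (0.83). Genes most like Cldn23 and Tjp1 thus began with membrane transporters.

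Cldn3 was most like Scand1 (r = 0.95), Cox8a (0.94) and Tpgs1 (0.93), whose longest transcripts hold 67.6, 56.0 and 57.8% G and C, against 62.7% for Cldn3. Cldn7 was most like Eif6 (0.88), Chmp4b and Vdac2 (both 0.87). Cldn12 was most like Cul4b (0.85), Zfp871 and Pax6 (both 0.83). For Cldn2 the first was Rpusd4 (0.78), for Cldn4 Tmbim1 (0.76), for Ocln Braf (0.74) and for Cldn8 H2-Q1 (0.73). The Spearman rho of Cldn8 with H2-Q1 was 0.51, lower than its r, and H2-Q1 belongs to a family of near-identical genes whose reads may be split between members.

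The remaining claudins had a lower mean CPM in the DC than the 8 above, with length not taken into account. Of 29 mouse claudins listed, 20 were in the table and 14 were tested. Beyond the 8 above, the tested ones were Cldn1 (a mean of 4.78 CPM over the 20 mice), Cldn5 (7.72 to 11.5 CPM as group means), Cldn14 (3.96 CPM), Cldn34c1 (2.03 CPM), Cldn10 (0.622 CPM) and Cldn11 (0.363 CPM). The 6 that were in the table but not tested (Cldn6, Cldn9, Cldn13, Cldn17, Cldn19 and Cldn24) had at most 16 reads in any mouse.

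Among all 83 tested genes of the 7 junction lists (99 listed, 89 in the table), edgeR called 1 in any comparison. Cldn5, the claudin of endothelial cells, fell over the RPS levels from 11.5 ± 2.59 CPM (SD, n = 5) at 0% RPS to 7.72 ± 0.508 CPM at 10% RPS (edgeR trend adjusted p = 0.0404, 10% RPS log2 difference -0.58 with adjusted p = 0.0998). Of the other 7 endothelial markers none was called by edgeR. DESeq2 called a falling trend in Emcn and Esam (DESeq2 adjusted p = 0.0145 and 0.0295), against 1.63% of all genes it tested. That share includes genes under the low-count filter. A falling edgeR trend with an unadjusted p under 0.05 was seen in 3 of the 7 (Emcn, Esam and Pecam1), against 10.1% of all genes. Cdh5, Kdr, Tek and Vwf did not reach it (edgeR unadjusted p = 0.341, 0.492, 0.156 and 0.973). Emcn was at 10.1 ± 1.99 CPM in controls and 7.46 ± 1.17 CPM in the 10% RPS group (edgeR trend adjusted p = 0.0529). The summed level of all 8 markers spanned 161 to 222 CPM in controls and 144 to 199.7 CPM in the 10% RPS group, and their part in the Cldn5 result was not tested.

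Of the 73 tested junction genes outside the set of 10, the median log2 difference at 10% RPS was 0.06. Of the 73, 8 were higher at 10% RPS with an unadjusted edgeR p under 0.05 (against 7.32% of all genes) and 5 were lower (against 7.87%). In the trend 14 of the 73 had such a p and a rising slope (against 9.00% of all genes) and 9 a falling one (against 10.1%). Igsf5, a JAM-family protein of colon tight junctions, was nearest to the threshold among them after Cldn5, at 22.9 ± 3.73 CPM in controls against 29.7 ± 2.12 CPM in the 10% RPS group (SD, n = 5, edgeR trend adjusted p = 0.0541). It was named after its value was seen. The 24 scaffolds had a median log2 difference of 0.02 at 10% RPS, with Tjp1 the highest of them at 0.16 and Pard6a, a polarity protein, the lowest at -0.34 (edgeR adjusted p = 0.191). Tjp3, a paralog of Tjp1, had a log2 difference of 0.01 (edgeR adjusted p = 0.965). The 15 actomyosin regulators had a median of 0.09, with 3 genes (Rock2, Arhgef11 and Cdc42) higher at an unadjusted p under 0.05 and 0 lower. The 16 adherens junction and desmosome genes had a median of 0.09, with 3 (Ctnnb1, Ctnnd1 and Pkp2) higher and 1 (Ppl) lower. Outside the claudins no listed gene was called by edgeR in any comparison, while DESeq2 called a rising trend in 6 of the 73 genes outside the set of 10 (8.22%, against 2.18% of all genes it tested) and a falling one in 3 (4.11%, against 1.63%). The 2.18% and 1.63% also cover genes under the low-count filter, which the 73 passed, so the sets compared are unlike.

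**Figure D5:**
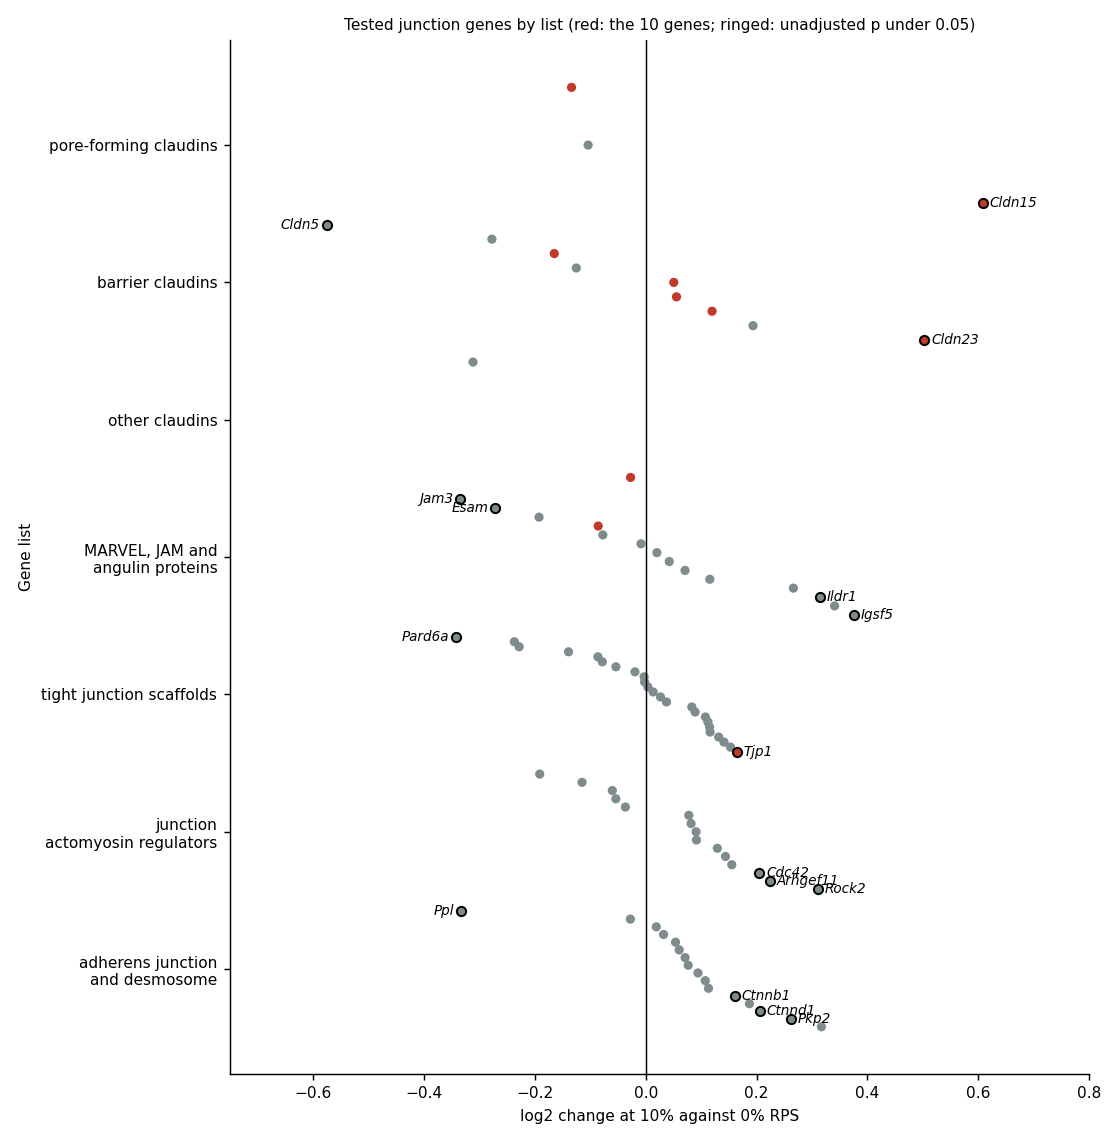
log2 difference between 10% and 0% RPS for the 83 tested junction genes, 1 row of points per list, with the 10 genes in red and a ring where the unadjusted edgeR p is under 0.05. Of the points, 62 lie between -0.2 and 0.2, and Cldn15 (0.61) and Cldn5 (-0.58) are the farthest from 0.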

How the data were processed

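Polyadenylated RNA of 20 DC samples was sequenced as stranded libraries with single-end reads of 50 bases. The authors trimmed bases of low quality, mapped the reads to GRCm39 with CLC Genomics Workbench, and deposited an unnormalised count for every gene in each mouse, with no pooling. Which annotation release was used, and how reads matching several genes were treated, is not given in the sources used here. Gene identifiers were matched to GENCODE vM39 (26338 of 26619 found). The labels name each mouse as a separate animal.

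Counts were analysed in R 4.3.3 with edgeR 4.0.16: filterByExpr with a minimum count of 10, trimmed mean of M-values (TMM) scaling, and the quasi-likelihood F-test (robust) in one fit over the 4 diets, or with RPS percent as a number for the trend. P-values were adjusted by Benjamini-Hochberg over the 17893 tested genes. Calls needed an adjusted p no larger than 0.05 and, between 2 diets, at least a 1.5-fold difference. CPM are TMM-scaled, with a prior count of 2 for log2 CPM. DESeq2 1.42.0 was an alternative, as were RLE scaling, no filter, the treatment label, leaving out mice, covariates, fits of 2 diets and no fold threshold. Correlations used 100000 two-sided permutations over mice, regardless of diet (SciPy 1.17.1), so a diet shift shared by both sides enters their p-values. Within a diet, none of 40 pairs of mice looked like 1 library, since the chi-square per degree of freedom of their counts was at least 9.10.

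Counts were also simulated for 17893 genes. The 10% against 0% comparison, with its fold threshold, recovered 28.4% of genes changed by 0.6 on the log2 scale and 80.6% of those changed by 1. The trend, with no fold threshold, recovered 53.7% and 71.6%. The 10 genes, the junction and marker lists and the tests were chosen with earlier results of these data known. Text names the 10 genes, list genes called in a comparison, the 3 most alike genes per member and the sodium transport genes by a fixed rule, and others after their values were seen where they illustrate a list. Some genes the rule would name are not reported here.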

Additional observations from a re-analysis of the deposited data

Results flagged for a closer look

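Mouse RS10_707 stood apart in the 0% RPS group for Tjp1, with 160.6 CPM against 142 CPM in the next highest of the 5 mice. It is the gap between this mouse and the others, measured against the range of the group, that was beyond what 1 in 20 groups shows by chance. Of 40 such tests (10 genes in 4 diets), 1 was past that limit, where chance would give 2. The same mouse had the highest Cldn23, Cldn4 and Cldn8 of the 0% RPS group. Without it, the log2 difference of Tjp1 between 10% and 0% RPS was 0.21, against 0.16 with it.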

How the results depend on the processing

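Of 570 member values under 29 alternatives, 539 kept their direction and their side of the threshold, 7 became past the threshold, 0 fell behind it and 24 turned sign. No member was called under any alternative except in the trend, where DESeq2 called 3 and edgeR 0 to 3 with 1 mouse left out (3 without RS10_727, 1 without RS10_721). In all other comparisons leaving out a mouse gave 0 to 0 called members. Genes called at 10% RPS numbered 7, but 210 with DESeq2, 13 with RLE scaling, 12 with a clock score covariate, 13 with library trends over GC content removed (an alternative chosen after seeing the data), 3 with only these 2 diets and 12 without the fold threshold. They numbered 0 with the treatment label, 0 without the 3 mice whose labels disagree, 0 with an epithelial marker covariate, and 5 to 188 with 1 mouse left out (188 without RS10_727). At 5% RPS 0 genes became 31 with DESeq2, 1 with only these 2 diets and 0 to 1 with 1 mouse left out. At 2% RPS 0 became 1 with DESeq2 and 0 to 0 with 1 mouse left out. The trend (375 genes) gave 985 with DESeq2, 0 with the treatment label, 56 without the 3 mice, 0 with the epithelial covariate, 193 with the clock covariate and 24 (without RS10_784) to 1148 (without RS10_727) with 1 mouse left out. Any difference (13 genes) gave 349 with DESeq2, 8 with RLE scaling, 0 with the treatment label, 0 without the 3 mice, 0 with the epithelial covariate, 8 with the clock covariate and 0 to 42 with 1 mouse left out. The cause was not tested.

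Sign turned for Cldn3, Cldn4, Cldn7, Cldn8 and Cldn12, none of which was called. At 10% RPS the log2 change became 0.016 for Cldn4 and 0.0020 for Cldn12 with the treatment label, -0.020 for Cldn7 with the epithelial covariate, and for Cldn8 -0.039 without the 3 mice and -0.11 with the clock covariate. With 1 mouse left out it ranged from -0.030 to 0.13 for Cldn3, -0.049 to 0.30 for Cldn8 and -0.089 to 0.035 for Cldn12. The slope per percent RPS became 0.0150 (treatment label), 0.0116 (without the 3 mice) and 0.00188 (GC trends removed) for Cldn4, -0.00373 for Cldn7 (epithelial covariate), -0.00128 (without the 3 mice) and -0.0141 (clock covariate) for Cldn8, and 0.000637 for Cldn12 (treatment label). With 1 mouse left out it ranged from -0.0140 to 0.0125 for Cldn4, -0.00586 to 0.0289 for Cldn8 and -0.0120 to 0.000142 for Cldn12. With the longest transcript as length, levels were 489 for Cldn7, 21.1 for Tjp1, 17.7 for Ocln and 9.09 CPM per kilobase for Cldn12.

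No paired analysis was possible because mouse numbers are not shared between diets. With 5 mice per diet, the simulated 10% against 0% comparison recovered 28.4% of changes of 0.6 on the log2 scale. Calls there also needed a 1.5-fold estimate, close to that size, so this share does not measure the number of mice alone. Estimates of Cldn23 (1.42-fold) and Tjp1 (1.12-fold) were under that fold and could not be called at any p. An uncalled Cldn15 or Cldn23 is therefore not shown to be unaffected. The 10% RPS libraries were shallower (18429493 to 26595092 reads) than the 0% RPS libraries, and depth and diet cannot be told apart for these 2 groups.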

Other observations

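Other marker lists of the DC held no gene called by edgeR at 10% RPS, apart from the surface colonocyte list, where 1 of 10 was called (against 0.0391% of all genes). Of 9 goblet cell markers, 3 had a rising trend with an unadjusted edgeR p under 0.05 and 0 had a falling one. Over all genes these shares were 9.00% rising and 10.1% falling, to be set beside each count that follows. Of 10 crypt stem and proliferation markers these counts were 1 and 0, of 8 enteric neuron and glia markers 0 and 4, and of 8 smooth muscle markers 0 and 0. Of 8 immune markers they were 1 and 1, of 6 tested squamous anal epithelium markers 2 and 0, of 5 tested pancreas markers 0 and 0, and of 9 clock genes 0 and 0. Among the 10 general epithelial markers they were 3 and 0. Of these 10, 1 (Krt20, also in the surface list) was called as rising over the RPS levels by edgeR, against 1.15% of all genes. The summed level of the 8 immune markers ranged from 126 to 747 CPM per mouse at 0% RPS and from 393 to 819 CPM at 10% RPS.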
